A study of Mus musculus with 20 samples.

Results

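The comparison is between heart ventricles of mice given rapamycin and of mice given the vehicle alone, averaged over 2 genotypes. It uses 20 of the 20 libraries of the series, 10 with rapamycin and 10 with vehicle, and genotype is a factor of the fit. The study crossed the drug with the loss of Acsl1, which couples long-chain fatty acids to coenzyme A so that they can be oxidised, and its design text gives 5 biological replicates per condition. The mice were male, of the C57Bl/J6 background and 6 to 8 weeks old when tamoxifen was given. Acsl1flox/flox littermates are called control hearts here and Acsl1H-/- mice knockout hearts, which gives 4 groups of 5 libraries. Every mouse, controls included, received tamoxifen at 75 mg/kg on 4 consecutive days. Rapamycin was injected daily at 1 mg/kg for 2 weeks, in a carrier that the vehicle groups received without the drug, and ventricles were taken 2 weeks after tamoxifen. Which Cre line drove the heart deletion is not stated in the labels, and no Cre is described in the controls, so Cre and the loss of Acsl1 cannot be told apart in the knockout arm. Both drug arms contain the 2 genotypes in equal number.

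Rapamycin binds FKBP12, and the pair inhibits mTOR complex 1, the kinase complex that couples amino acids, growth factors and energy to translation, ribosome production, mitochondrial function and autophagy. Much of its action is through phosphorylation and translation of messenger RNAs, which RNA levels do not measure. The heart burns mainly fatty acids, and also takes up ketone bodies, lactate, glucose and branched-chain amino acids as fuels.

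Acsl1 followed the genotype labels. The 10 control libraries held between 6373 and 16661 in the normalised expression value, a read estimate per gene scaled to the same upper quartile in each library, and the 10 knockout libraries between 631 and 1950, with no overlap. Rapamycin minus vehicle for Acsl1 itself was 0.14 ± 0.20 (SE) on the log2 scale (adjusted p = 0.809). The 12 markers of ventricular cardiomyocytes were all detected, and their summed level had a median of 2450130 in vehicle and 2392060 in rapamycin libraries. Of the vehicle libraries of control hearts, numbers 1 and 3 had scores of -73.4 and -84.6 on the leading principal component (33.7% of the variance), where the other 18 libraries lay between -19.3 and 41.7. The same 2 libraries had the lowest transcript length scores, with number 3 at -1.11, against -0.45 to 0.56 in the other 18. This score is the mean log2 level of long transcripts (the upper quartile, from 4987 bases) minus that of short ones (the lower quartile, up to 2302 bases). Each gene's level was first centred on its mean over the 20 libraries, and only genes with a mean value of at least 100 were used. The score is computed from the same expression values as the tests. It differed by 0.19 between the drug arms, within the spread of libraries (two-sided exact permutation test, p = 0.323). A call below that changes when the score is a covariate is given in both fits, and the calls that remain without the 2 libraries are given once; the part of either in a result was not tested. The implied depth was 11.5 to 21.1 M reads per library, and a low-count gene cannot show a small change at this depth.

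Rapamycin moved few genes past the threshold. Of 13548 genes tested with limma on log2(value + 1), 17 (0.125%) passed an adjusted p of 0.05 (Benjamini-Hochberg), 14 lower (0.103%) and 3 higher (0.0221%). At an unadjusted p under 0.05 there were 1251 genes (9.23%), 628 lower (4.64%) and 623 higher (4.6%). The 14 lower genes were Bdh1, Abat, Dera, Ckb, Bcat2, Ccbl2, Acy3, Pmm2, Pdhx, Yars2, Slc25a13, Bckdhb, Gm5512 and Atpaf1, and the higher ones included Retnla and Peg13. Gm5512 and Atpaf1 have the smallest changes of the 14 and are named after their values were seen. In whole ventricle, a change in the number of cells of a type and a change in RNA per cell cannot be told apart. The plot of values by group shows 8 of the 17.

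**Figure D1:**
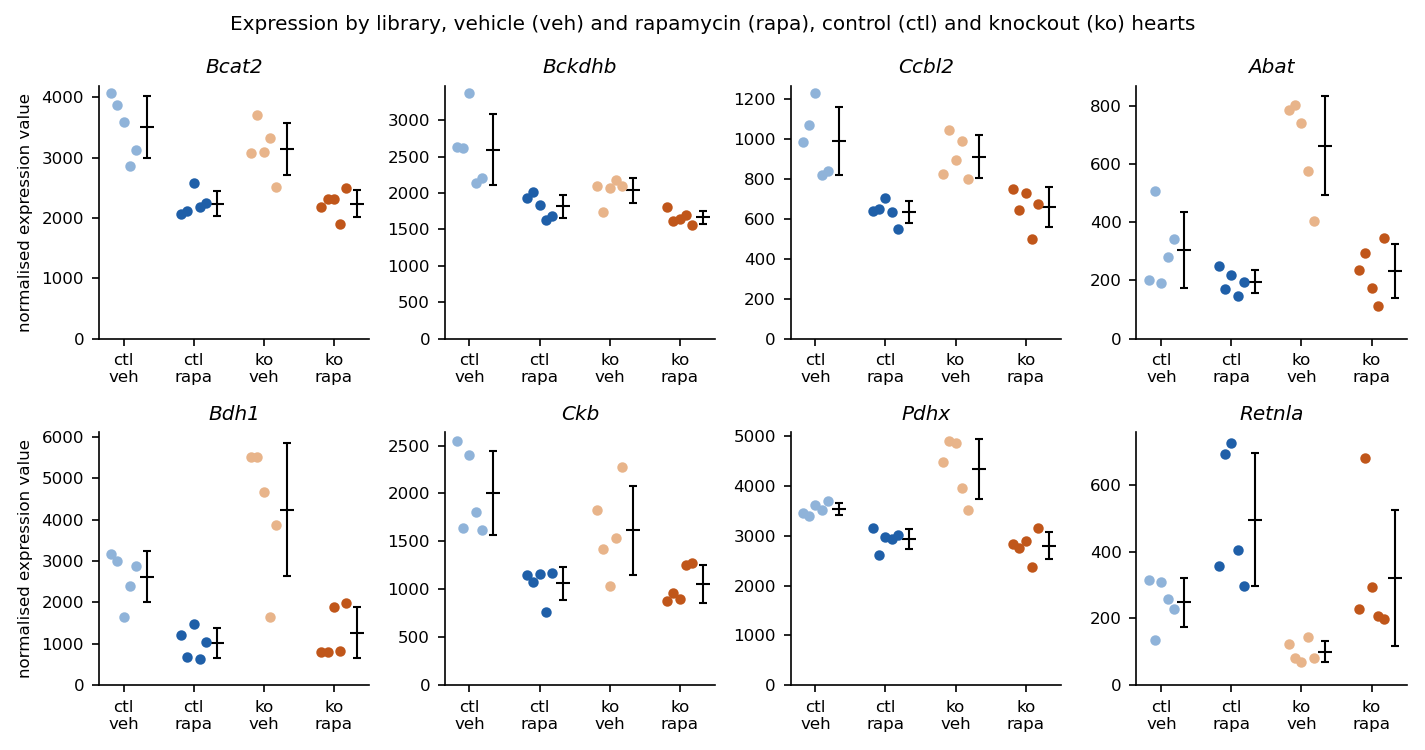
Normalised expression value (linear axis from 0) of 8 genes in every library, in control (ctl) and knockout (ko) hearts with vehicle (veh) or rapamycin (rapa). Points are the 5 libraries of a group and black bars the mean ± SD. For Pdhx the 10 rapamycin libraries, at 2381 to 3166, lie below the 10 vehicle libraries, at 3394 to 4914.

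The breakdown of branched-chain amino acids begins with 2 mitochondrial steps, and a gene of each fell with rapamycin. Bcat2 encodes the mitochondrial aminotransferase that removes nitrogen from leucine, isoleucine and valine. In control hearts its values were 4078, 3878, 3596, 2855 and 3120 with vehicle and 2067, 2118, 2585, 2173 and 2251 with rapamycin. In knockout hearts they were 3070, 3710, 3099, 3323 and 2514 with vehicle and 2175, 2307, 2309, 1897 and 2499 with rapamycin. The groups did not overlap within either genotype, although the highest control rapamycin library lay above the lowest knockout vehicle library. The fitted level with rapamycin was 67.7% of that with vehicle, a log2 change of -0.56 ± 0.08 (SE; limma, adjusted p = 0.0129). RefSeq places another gene, 0610005C13Rik, across Bcat2, so some reads may be shared.

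Bckdhb encodes the E1 beta subunit of the branched-chain ketoacid dehydrogenase, which commits the carbon skeletons to oxidation. Its values ran from 1743 through a median of 2163 to 3383 with vehicle and from 1566 through 1695 to 2012 with rapamycin. All 10 rapamycin libraries lay below the vehicle median and 6 lay below every vehicle library. The log2 change was -0.39 ± 0.08 (SE; limma, adjusted p = 0.04995, just under the threshold). It was among the genes most easily lost, being called in 2 of the 20 fits that leave out 1 library. RefSeq has Gm29163 and Gm46124 across Bckdhb, so some reads may be shared.

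The rest of the pathway list did not pass. Of its 24 genes, all tested, 2 were called lower and none higher, 8 were lower at an unadjusted p under 0.05, and 18 had a negative change. The median change of the list was -0.18, against 0.04 over all genes tested. By genotype it was -0.05 in control hearts, with 14 of 24 changes negative, and -0.28 in knockout hearts, with 20 of 24 negative. Over all genes tested the medians were 0.07 in control and -0.02 in knockout hearts. With the transcript length score as a covariate, 322 genes passed in the whole table (2.38%; 177 or 1.31% higher, 145 or 1.07% lower), and 12 of the 24 were among the lower ones. Beside Bcat2 and Bckdhb these were Dbt and Dld, the E2 and E3 subunits of the ketoacid dehydrogenase, and Ivd, Mccc1, Mccc2, Hibch, Hibadh, Aldh6a1, Pcca and Pccb, enzymes of the later leucine, valine and propionate steps. These 10 were chosen after their values were seen.

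Dbt shows how far the choice of fit matters. Its change was -0.25 ± 0.26 (SE; limma, adjusted p = 0.744) in the fit of 4 group means and -0.53 ± 0.09 (adjusted p = 0.00380) with the score. Mccc1, a subunit of methylcrotonyl-CoA carboxylase, went from -0.19 ± 0.17 (adjusted p = 0.704) to -0.37 ± 0.06 (adjusted p = 0.00307). Hibch, the hydrolase of valine breakdown, had nearly the same change in both, -0.28 and -0.27, with adjusted p-values of 0.169 and 0.0444. Without control vehicle libraries 1 and 3 the list's median was -0.17, with 22 of 24 changes negative, and Bcat2 was its 1 called member.

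**Figure D2:**
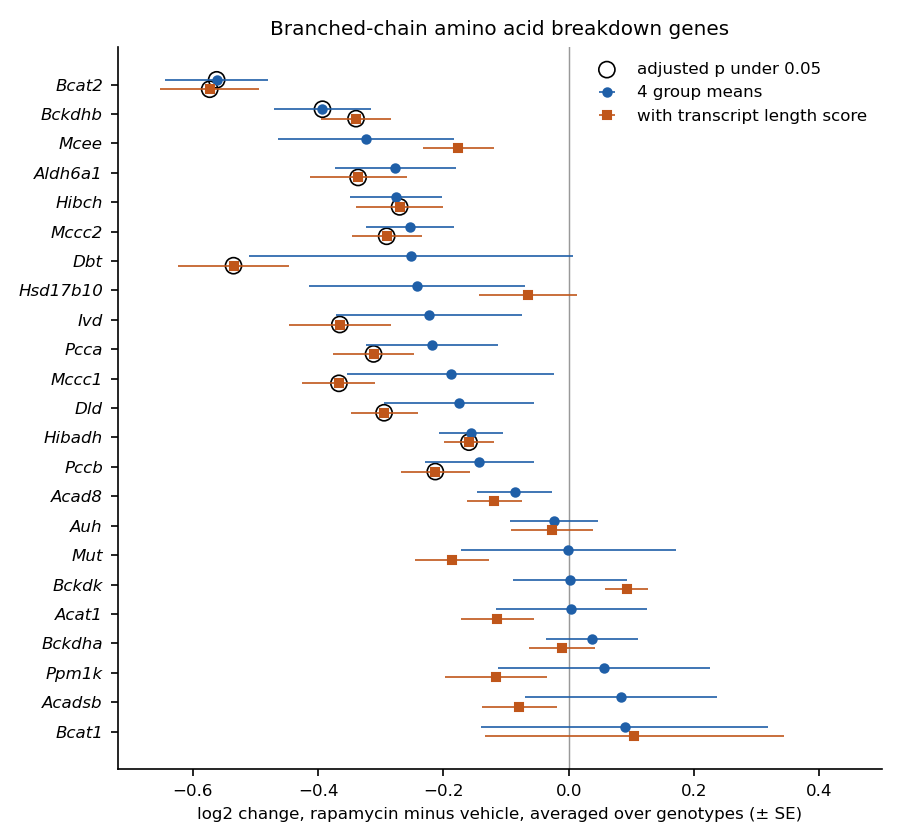
Log2 change with rapamycin (± SE, averaged over genotypes) for 23 of the 24 genes of branched-chain amino acid breakdown, from the fit of 4 group means (blue circles) and with the transcript length score as a covariate (orange squares). Open rings mark an adjusted p under 0.05: Bcat2 and Bckdhb in the first fit and 12 genes in the second.

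The largest fall among the 17 was that of Bdh1. It encodes the mitochondrial 3-hydroxybutyrate dehydrogenase, which interconverts the 2 main ketone bodies and starts the oxidation of 3-hydroxybutyrate. In control hearts it held 3174, 3001, 1645, 2386 and 2875 with vehicle and 1207, 672, 1486, 630 and 1050 with rapamycin. In knockout hearts it held 5516, 5506, 4682, 1645 and 3877 with vehicle and 810, 803, 1895, 821 and 1991 with rapamycin. The groups were separate in control hearts, and in knockout hearts 1 vehicle library fell among the rapamycin libraries. The fitted level with rapamycin was 33.3% of vehicle, a log2 change of -1.59 ± 0.24 (SE; limma, adjusted p = 0.0129). RefSeq has Gm15743 across the Bdh1 locus, so some reads may be shared.

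Oxct1, the transferase that the heart needs to oxidise ketone bodies, did not pass in the fit of group means. Its change was -0.25 ± 0.13 (SE; limma, adjusted p = 0.552), and -0.38 ± 0.06 (adjusted p = 0.00225) with the length score. Oxct1 was named after its values were seen.

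Pdhx, the E3-binding protein that anchors dihydrolipoamide dehydrogenase to the pyruvate dehydrogenase complex, fell in both genotypes. Control hearts held 3464, 3394, 3624, 3528 and 3708 with vehicle and 3166, 2606, 2971, 2944 and 3011 with rapamycin. Knockout hearts held 4476, 4914, 4869, 3964 and 3514 with vehicle and 2832, 2763, 2890, 2381 and 3156 with rapamycin. The 10 and 10 libraries did not overlap. The fitted level was 73.2% of vehicle, a log2 change of -0.45 ± 0.07 (SE; limma, adjusted p = 0.0129). The fall was -0.27 ± 0.10 in control and -0.63 ± 0.10 in knockout hearts, with an unadjusted p of 0.0195 for the difference and none of the 13548 interactions past adjustment. Of the 13 genes in a list of the complex and its regulators, drawn up after the called genes were seen, Pdhx was the 1 called. Dlat, the E2 core, had -0.21 ± 0.06 (adjusted p = 0.219), and Pdhb, of the E1 enzyme, -0.20 ± 0.07 (adjusted p = 0.368). With the length score Pdhx, Dlat and Dld passed as lower. Pdk4, the kinase that switches the complex off, had a change of 0.11 ± 0.39 (adjusted p = 0.928).

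A pair of aminotransferases of other substrates also fell. Ccbl2 (now Kyat3) encodes kynurenine aminotransferase 3, which also acts on glutamine and cysteine conjugates. It ran from 798 through a median of 941 to 1230 with vehicle and from 498 through 649 to 749 with rapamycin, without overlap, and its log2 change was -0.55 ± 0.09 (SE; limma, adjusted p = 0.0245). Abat encodes GABA transaminase, a mitochondrial enzyme that feeds 4-aminobutyrate carbon towards the citric acid cycle. Control hearts held 201, 508, 190, 282 and 344 of it with vehicle and 250, 170, 220, 147 and 194 with rapamycin. Knockout hearts held 789, 805, 742, 578 and 405 with vehicle and 237, 296, 175, 113 and 348 with rapamycin. Only the knockout groups were separate. The averaged log2 change of Abat was -1.06 ± 0.21 (adjusted p = 0.0480), made up of -0.56 ± 0.29 in control and -1.56 ± 0.29 in knockout hearts, and the unadjusted p for that difference was 0.0257. RefSeq has Gm18792 across Abat.

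Slc25a13, citrin, exchanges aspartate and glutamate across the inner mitochondrial membrane for the malate-aspartate shuttle. It ran from 4463 through 5853 to 6588 with vehicle and from 3672 through 4403 to 4798 with rapamycin. The arms overlapped, and all 10 rapamycin libraries were below the vehicle median. The log2 change was -0.41 ± 0.07 (SE; limma, adjusted p = 0.0402) and was -0.41 in each genotype.

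Yars2 charges tyrosine to its mitochondrial tRNA, and Atpaf1 helps to assemble the F1 part of ATP synthase. Yars2 ran from 645 through 749 to 1028 with vehicle and from 507 through 562 to 636 with rapamycin. Atpaf1 ran from 1983 through 2222 to 2565 with vehicle and from 1665 through 1794 to 1926 with rapamycin. Neither overlapped between the arms. The log2 changes were -0.43 ± 0.08 (SE; limma, adjusted p = 0.0440) for Yars2 and -0.32 ± 0.06 (adjusted p = 0.0440) for Atpaf1. Atpaf1 shares a near-identical stretch with Gm14117, so its count is uncertain. In all, 5 genes (0.0369% of those tested) had 10 rapamycin and 10 vehicle libraries without overlap: Pdhx, Ccbl2, Yars2, Atpaf1 and Tead4.

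Tead4, a TEA-domain transcription factor of the Hippo pathway, was the 1 of these 5 outside the called set. Its values were low, 27.7 through 39.7 to 47.2 with vehicle and 48.1 through 56.5 to 70.5 with rapamycin. The log2 change was 0.61 ± 0.12 (SE; limma, adjusted p = 0.0610), and 0.55 ± 0.11 (adjusted p = 0.0138) with the length score. It was named after its values were seen.

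The 5 remaining lower genes encode enzymes of other routes, or a predicted gene. Ckb, the brain-type cytosolic creatine kinase, ran from 1036 through 1723 to 2547 with vehicle and from 761 through 1108 to 1274 with rapamycin, a log2 change of -0.75 ± 0.14 (SE; limma, adjusted p = 0.0418). All 10 rapamycin libraries lay below the vehicle median of Ckb, which shares a near-identical stretch with Gm12892. Dera, deoxyribose-phosphate aldolase, ran from 77.5 through 136 to 213 with vehicle and from 49.8 through 63.6 to 108 with rapamycin, with a change of -0.85 ± 0.16 (adjusted p = 0.0446). Pmm2 supplies mannose-1-phosphate for N-glycosylation and had a change of -0.49 ± 0.09 (adjusted p = 0.0418), with Tmem186 overlapping it. Acy3, aminoacylase 3, which deacetylates aromatic amino acids and mercapturates, had -0.55 ± 0.11 (adjusted p = 0.04995) and shares sequence with Gm48931. Gm5512 had -0.38 ± 0.07 (adjusted p = 0.0418), and near-identical copies of it were not searched for.

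Retnla encodes RELM alpha, a secreted protein that marks alternatively activated macrophages and is also made by adipose tissue. Control hearts held 315, 135, 311, 258 and 228 with vehicle and 359, 696, 726, 406 and 297 with rapamycin. Knockout hearts held 123, 82.0, 69.6, 144 and 81.3 with vehicle and 227, 681, 294, 208 and 199 with rapamycin. The knockout groups were separate and the control groups overlapped. The fitted level with rapamycin was 239% of vehicle, a log2 change of 1.26 ± 0.24 (SE; limma, adjusted p = 0.0418).

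The other macrophage markers did not pass. Retnla was the 1 called gene of 19, the list's median was -0.15, and the summed level had a median of 15425 in vehicle and 14268 in rapamycin libraries. Of the 19 changes 12 were negative and 7 positive, with 3 lower and 1 higher at an unadjusted p under 0.05 (limma). In control hearts 10 were negative and 9 positive, and in knockout hearts 17 and 2. The sums ranged from 13557 to 15752 in control vehicle, 11542 to 15564 in control rapamycin, 13620 to 23828 in knockout vehicle and 11463 to 17167 in knockout rapamycin libraries. No marker of the list was at 0 in all libraries. Cd68, a lysosomal glycoprotein of macrophages, had a change of -0.59 ± 0.15 (SE; limma, adjusted p = 0.138), and Emr1, the F4/80 antigen, of -0.51 ± 0.18 (adjusted p = 0.368). Cd68 and Emr1 were named after their values were seen.

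Adipocyte markers had positive changes beside that of Retnla. All 11 tested markers had a positive averaged change and none was called, 1 being higher at an unadjusted p under 0.05. The median was 0.33, from 1.17 in control and 0.08 in knockout hearts, and 0.19 without control vehicle libraries 1 and 3. The summed level of all 14 markers of the list, tested or not, ranged from 21886 to 39021 in control vehicle, 25618 to 33529 in control rapamycin, 22880 to 28008 in knockout vehicle and 26216 to 35320 in knockout rapamycin libraries. None of the markers was at 0 in all libraries, and their part in the rise of Retnla was not tested.

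Peg13, an imprinted noncoding RNA within Trappc9, also rose. It ran from 1590 through 2152 to 2582 with vehicle and from 2363 through 2717 to 3203 with rapamycin. All 10 rapamycin libraries lay above the vehicle median and 7 above every vehicle library. The log2 change was 0.39 ± 0.07 (SE, limma, adjusted p = 0.0440). RefSeq has Trappc9 across Peg13, so some reads may be shared. The next higher genes by p-value did not pass: Recql, a DNA helicase, at 0.43 ± 0.09 (adjusted p = 0.0752), Cacna1s, the skeletal muscle L-type calcium channel, at 0.45 ± 0.09 (adjusted p = 0.0793), and Frem2, an extracellular matrix protein, at 0.97 ± 0.21 (adjusted p = 0.0804). All 3 passed with the length score, Recql at 0.40 (adjusted p = 0.0156), Cacna1s at 0.42 (adjusted p = 0.0167) and Frem2 at 0.79 (adjusted p = 0.00607).

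The 17 genes had the same direction in both genotypes, which their choice on the average favours. No gene passed in control hearts alone (0.0%; limma, 2024 genes or 14.9% at an unadjusted p under 0.05) and 1 gene, Pdhx, in knockout hearts alone (0.00738%; 774 genes or 5.71% unadjusted). For the difference between genotypes no gene passed (0.0%; limma, 1124 genes or 8.3% unadjusted), and the lowest adjusted p was 0.523. With the length score 223 genes (1.65%) passed in knockout hearts and none in control hearts (0.0%; 1355 genes at an unadjusted p under 0.05). The genotypes share no library. Of their 2024 and 774 genes, 120 were in both sets, and 102 of the 120 had the same direction. The 120 were 5.93% of the control set, near the 5.71% of all genes tested that were in the knockout set. They were 15.5% of the knockout set, near the 14.9% of all genes tested that were in the control set. Across all 13548 genes the 2 changes had a Pearson r of -0.05, and of 0.11 with the length score; genes are not independent replicates.

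**Figure D3:**
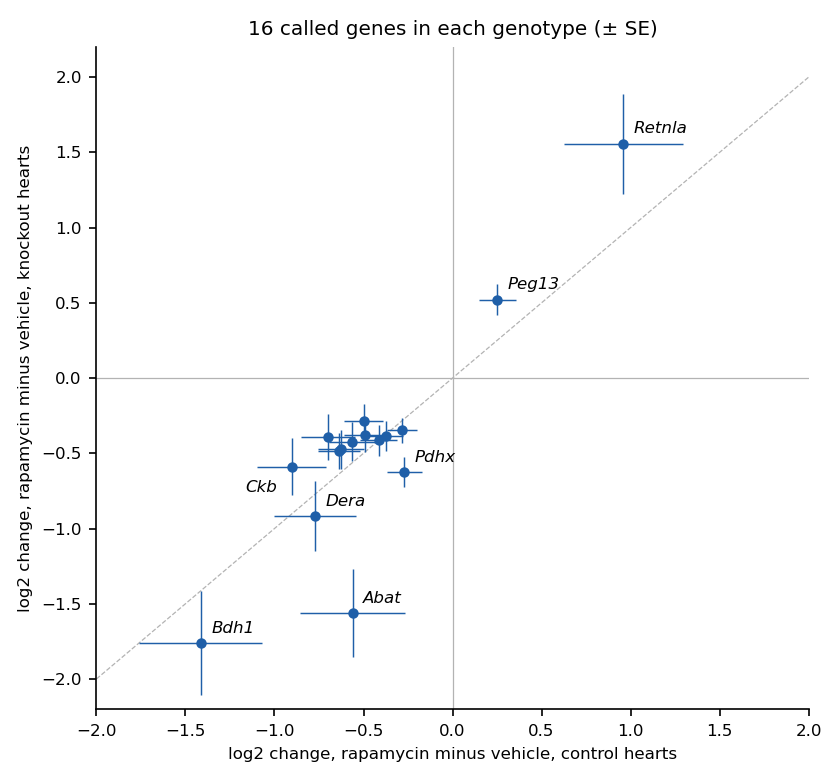
Log2 change with rapamycin in control hearts (x axis) and in knockout hearts (y axis) for 16 of the 17 called genes, each with its SE; the dashed line marks equal change. All 16 points lie in the lower left or upper right corner, and Abat and Pdhx lie farthest below the line relative to their errors, with unadjusted p-values of 0.0257 and 0.0195 for the difference.

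The labels put the libraries in 4 pools, each of which held both arms. Within every pool the 16 genes described here kept their direction: Bdh1, for example, had mean changes of -1.98, -2.48, -0.66 and -0.91 in pools 1 to 4, and Pdhx of -0.42, -0.54, -0.40 and -0.42. With the pool as a term the changes of the 17 were 0.90 to 1.07 times those of the fit of group means and all 17 stayed at an unadjusted p under 0.05, but none passed adjustment (lowest adjusted p = 0.0528, for Bcat2; 972 genes unadjusted). Without control vehicle libraries 1 and 3, 4 genes (0.0296%) passed, Bcat2, Bdh1, Pdhx and Abat. Bcat2, Bdh1 and Pdhx were called in all 20 fits that leave out 1 library. All 17 were called with the length score.

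Genes of the mTOR pathway itself did not pass in the fit of group means, and 1 passed with the length score. Of 44 tested genes of the complexes and their regulators none was called (limma; 4 lower and 1 higher at an unadjusted p under 0.05), and the median was -0.03. Mtor, the kinase, had a change of 0.10 ± 0.18 (SE; adjusted p = 0.845), Rptor, the complex 1 scaffold, 0.10 ± 0.13 (adjusted p = 0.792), and Rictor, the complex 2 scaffold, 0.20 ± 0.18 (adjusted p = 0.707). Deptor, an inhibitor of both complexes, ran from 195 through 409 to 521 with vehicle and from 376 through 505 to 610 with rapamycin, a change of 0.41 ± 0.16 (adjusted p = 0.410). It shrank to 0.25 ± 0.07 (adjusted p = 0.0546) with the score and to 0.22 without the 2 libraries. Sesn3, a sestrin that restrains complex 1, had -0.43 ± 0.12 (adjusted p = 0.194) and passed with the score at -0.50 ± 0.11 (adjusted p = 0.0169). Telo2, needed for the assembly of mTOR and related kinases, had -0.32 ± 0.09 (adjusted p = 0.219).

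Neither the drug's binding partner nor the substrates of complex 1 passed in the fit of group means. Fkbp1a, which encodes FKBP12, had a change of 0.08 ± 0.12 (SE; limma, adjusted p = 0.821), and none of the 14 FK506-binding protein genes was called (2 higher and 1 lower at an unadjusted p under 0.05). The lowest p-values among them were those of Fkbp10, at 0.42 ± 0.12 (adjusted p = 0.211), and Fkbp11, at -0.82 ± 0.25 (adjusted p = 0.258), both prolyl isomerases of the endoplasmic reticulum. Fkbp10 passed with the length score at 0.48 ± 0.10 (adjusted p = 0.0159). Its change was 0.07 in control and 0.77 in knockout hearts, with an unadjusted p of 0.00761 for the difference. Of 21 tested substrates and effectors of complex 1 none was called (2 higher unadjusted), with a median of 0.09. Rps6kb1, the S6 kinase, had 0.06 ± 0.14 (adjusted p = 0.895) and Eif4ebp1, the translation repressor 4E-BP1, -0.00379 ± 0.13 (adjusted p = 0.995). Eif4b, a helicase cofactor that S6 kinase phosphorylates, had 0.33 ± 0.08 (adjusted p = 0.113), and Tfeb, the lysosomal transcription factor that complex 1 restrains, 0.18 ± 0.07 (adjusted p = 0.464). With the score 2 of the 21 passed as higher, Eif4b at 0.30 ± 0.07 (adjusted p = 0.0227) and Rps6, the ribosomal protein that S6 kinase phosphorylates, at 0.25 ± 0.05 (adjusted p = 0.00982), up from 0.11 ± 0.14. The 66 lysosome and TFEB target genes had a median of -0.02 and the 47 autophagy genes of -0.01, with none called and 7 and 2 at an unadjusted p under 0.05. With the score 3 lysosomal genes, Hexa, Ids and Sumf1, and 1 autophagy gene, Map1lc3b, passed as higher. These 4 and Rps6 were named after their values were seen.

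Transcripts of the cytosolic translation machinery depended on the fit. None of 79 ribosomal protein genes was called (limma; 1 higher at an unadjusted p under 0.05), and the median was -0.00357, from -0.24 in control and 0.22 in knockout hearts. With the length score 20 of the 79 passed, all 20 higher (25.3% of the list), all 79 had a positive change, and the median was 0.17, as it was without control vehicle libraries 1 and 3, a fit in which none passed. Rpl4 and Rpl21, of the large subunit, had 0.22 ± 0.06 (adjusted p = 0.191) and 0.13 ± 0.10 (adjusted p = 0.675) in the fit of group means and 0.22 in both cases with the score (adjusted p = 0.0249 for each). Rpl13a, named after its values were seen, went from 0.12 ± 0.18 to 0.32 ± 0.06 (adjusted p = 0.00509).

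Of 46 translation factors none was called (3 higher at an unadjusted p under 0.05), and 8 passed as higher with the score. Eef2, the ribosome translocase, ran from 45986 through 60529 to 70128 with vehicle and from 63716 through 69691 to 97270 with rapamycin, a change of 0.29 ± 0.08 (SE; limma, adjusted p = 0.238) and of 0.34 ± 0.06 (adjusted p = 0.00603) with the score. Eif3b, a scaffold of initiation factor 3, had 0.19 ± 0.06 (adjusted p = 0.265) and passed with the score (adjusted p = 0.0439). Eef1a1, which delivers aminoacyl-tRNA, had 0.30 ± 0.14 (adjusted p = 0.542) and 0.44 ± 0.07 (adjusted p = 0.00253) in the same 2 fits, and was named after its values were seen.

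Messengers of the mitochondrial ribosome were low as a group in the fit of group means. All 75 tested genes had a negative change, with a median of -0.19 against 0.04 over all genes, and 26 (34.7%) were lower at an unadjusted p under 0.05, but none was called. The median was -0.29 in control hearts, with 75 of 75 negative, and -0.10 in knockout hearts, with 55 of 75 negative. With the length score the median of the averaged changes was -0.07, with 62 of 75 negative and 6 called lower. Without control vehicle libraries 1 and 3 it was -0.06, with 60 of 75 negative. Mrps27 ran from 1329 through 1578 to 1910 with vehicle and from 1169 through 1300 to 1402 with rapamycin, a change of -0.32 ± 0.07 (SE; limma, adjusted p = 0.0796), and passed with the score at -0.27 ± 0.04 (adjusted p = 0.00380). Mrps9, also of the small subunit, had -0.23 ± 0.06 (adjusted p = 0.131) and -0.22 ± 0.05 (adjusted p = 0.0198).

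For oxidative phosphorylation the low median did not hold under either alternative. Of 79 genes 74 had a negative change, the median was -0.14, 4 were lower at an unadjusted p under 0.05 and none was called. The median was -0.32 in control hearts, with 74 of 79 negative, and 0.03 in knockout hearts, with 44 of 79 positive. In both the fit with the score and the one without the 2 libraries the median was 0.02, with 34 negative changes. Cox8a, a subunit of cytochrome c oxidase, had -0.33 ± 0.14 (SE; limma, adjusted p = 0.464) and Ndufs3, of complex I, -0.25 ± 0.12 (adjusted p = 0.521). With the score Cox8a was the 1 gene of the list that passed, at a smaller -0.19 ± 0.05 (adjusted p = 0.0482), and Ndufs3 had -0.13 ± 0.04 (adjusted p = 0.133). Without the 2 libraries their changes were -0.17 and -0.11. A list of 42 tested import and assembly factors was drawn up after the called genes were seen. Of these, 14 (33.3%) were lower at an unadjusted p under 0.05, against 4.64% of all genes tested. The list's median was -0.13 in the fit of group means, with 33 negative changes, and -0.05 with the score, with 25 negative. Without the 2 libraries it was -0.03, with 24 negative and 6 lower at an unadjusted p under 0.05. Atpaf1 was called in the fit of group means. Timm44, which recruits the import motor, had -0.29 ± 0.07 (adjusted p = 0.135). The change of Timm44 was -0.03 in control and -0.55 in knockout hearts, with an unadjusted p of 0.00242 for the difference. With the score 5 of the 42 passed as lower, Timm44 (-0.34 ± 0.06, adjusted p = 0.00380), Atpaf1, Pmpcb, Grpel1 and Cox15, and 2 as higher, Cox17 and Tomm40l. Pmpcb, Grpel1, Cox15, Cox17 and Tomm40l were named after their values were seen.

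No regulator of mitochondrial gene expression passed in the fit of group means. Of 22 genes, 3 were higher and 3 lower at an unadjusted p under 0.05, and the median was 0.07. Nrf1, nuclear respiratory factor 1, had 0.21 ± 0.07 (SE; limma, adjusted p = 0.316), Tfb1m, a mitochondrial rRNA methyltransferase, -0.28 ± 0.11 (adjusted p = 0.440), and Ppargc1a, the coactivator PGC-1 alpha, 0.23 ± 0.21 (adjusted p = 0.712). In the fit with the length score 1 passed in each direction, Nrf1 at 0.24 ± 0.06 (adjusted p = 0.0367) and Polrmt, the mitochondrial RNA polymerase, at -0.28 ± 0.06 (adjusted p = 0.0245), from -0.21 ± 0.09 (adjusted p = 0.479). Polrmt was named after its values were seen.

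**Figure D4:**
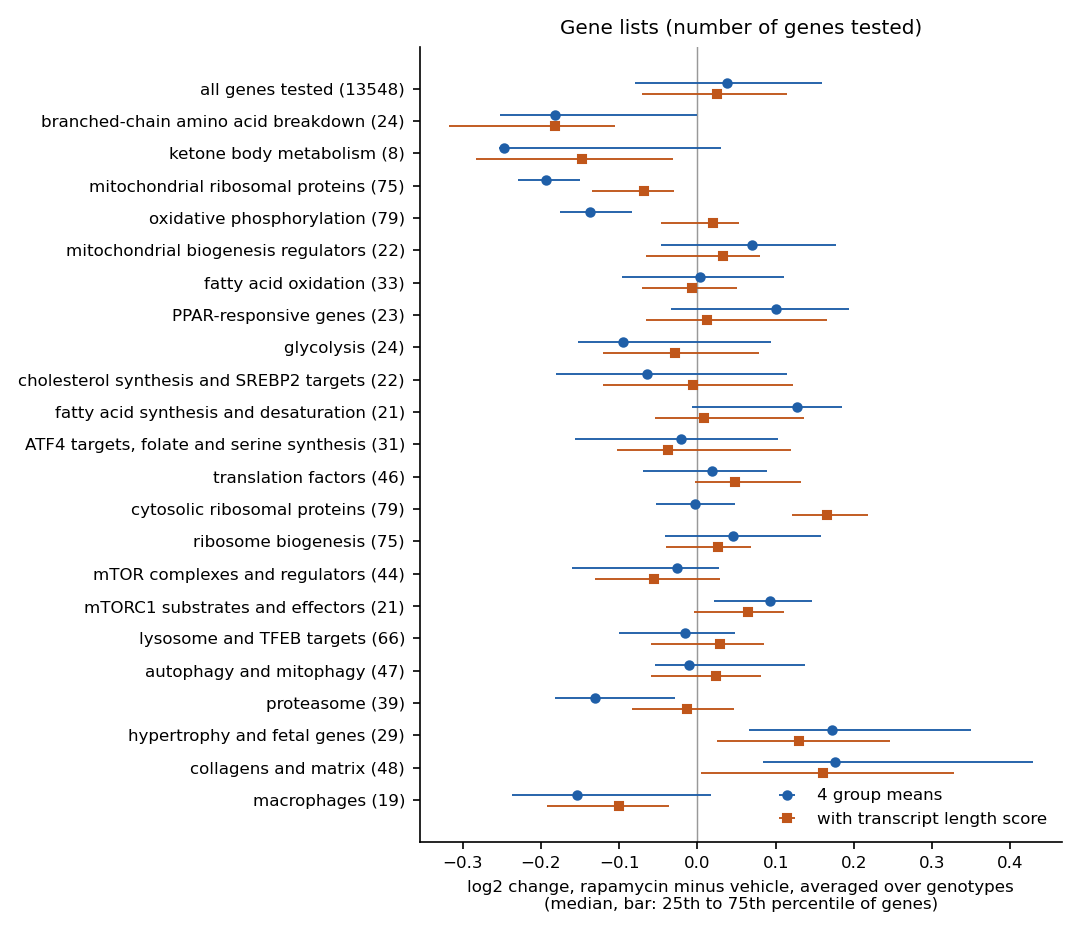
Median log2 change with rapamycin, averaged over genotypes, for all genes tested and 22 gene lists; bars span the 25th to 75th percentile of the genes, blue circles are the fit of 4 group means and orange squares the fit with the transcript length score. Branched-chain amino acid breakdown keeps a median of -0.18 in both fits, while oxidative phosphorylation moves from -0.14 to 0.02 and cytosolic ribosomal proteins from -0.00357 to 0.17.

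Fatty acid oxidation, the route that Acsl1 feeds, showed no called gene with rapamycin in the fit of group means and 1 with the length score. Its 33 genes had a median of 0.00, with 3 lower and 2 higher at an unadjusted p under 0.05. Echs1, the enoyl-CoA hydratase, had -0.18 ± 0.06 (SE; limma, adjusted p = 0.332), Acad11, an acyl-CoA dehydrogenase, -0.19 ± 0.07 (adjusted p = 0.368), and Cpt1b, the muscle carnitine palmitoyltransferase, 0.00 ± 0.07 (adjusted p = 0.991). The 1 was Acad11, at -0.23 ± 0.05 (adjusted p = 0.0248). Acot1, a PPAR-responsive acyl-CoA thioesterase, ran from 706 through 943 to 2049 with vehicle and from 941 through 1542 to 2430 with rapamycin, a change of 0.57 ± 0.19 (adjusted p = 0.339), and was named after its values were seen. Of 22 cholesterol synthesis and SREBP2 target genes none was called and 5 were lower at an unadjusted p under 0.05, led by Cyp51, the lanosterol demethylase, at -0.29 ± 0.07 (adjusted p = 0.118), and Insig1, which retains SREBP in the endoplasmic reticulum, at -0.42 ± 0.11 (adjusted p = 0.185). Cyp51 passed with the score at -0.30 ± 0.06 (adjusted p = 0.0154), the 1 of the 22 that did. The 24 glycolysis genes had a median of -0.09, with none called and 5 lower unadjusted. With the score 1 of them passed as higher, the enolase gene Eno1 (0.20 ± 0.04, adjusted p = 0.00982), which was named after its values were seen.

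No marker of hypertrophy passed, with or without the length score. Of 29 hypertrophy and fetal genes, 7 were higher and 1 lower at an unadjusted p under 0.05, and the median was 0.17. Acta1, skeletal alpha actin, ran from 1276 through 5478 to 11744 with vehicle and from 560 through 1925 to 5238 with rapamycin, a change of -1.33 ± 0.46 (SE; limma, adjusted p = 0.360). All 10 rapamycin libraries of Acta1 lay below the vehicle median. Myh7, the fetal myosin heavy chain, had 0.49 ± 0.21 (adjusted p = 0.469), made up of 1.01 ± 0.29 in control and -0.03 ± 0.29 in knockout hearts, with an unadjusted p of 0.0193 for the difference. The averaged change of Myh7 was 0.29 ± 0.11 (adjusted p = 0.179) with the score and 0.18 without the 2 libraries. Myh6, the adult chain, had 0.28 ± 0.23 (adjusted p = 0.695).

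The natriuretic peptides varied widely between libraries. Nppa ran from 1295 to 38847 with vehicle and from 1431 to 34858 with rapamycin, with a change of 0.41 ± 0.48 (SE; limma, adjusted p = 0.780), and Nppb had 0.14 ± 0.52 (adjusted p = 0.934). Nppa is also an atrial gene, 1 of 15 atrial and conduction markers, of which 14 were tested. The summed level of the 15 ranged from 3554 to 7438 in control vehicle, 4149 to 38104 in control rapamycin, 6233 to 70200 in knockout vehicle and 11143 to 65623 in knockout rapamycin libraries. The part of atrial tissue in these values was not tested. With the mean atrial level as a covariate 12 genes passed, 11 of them among the 17. Tbx20, a cardiac transcription factor, at 0.35 ± 0.11 (adjusted p = 0.251), and Ankrd1, a stretch-responsive ankyrin repeat protein, at 0.65 ± 0.21 (adjusted p = 0.316), had the lowest p-values of the list.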

How the data were processed

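Poly(A) RNA of heart ventricle was sequenced from 20 mice, 5 in each of 4 groups taken from the genotype and drug labels. The values are a normalised signal that the authors deposited for 21705 genes: RSEM read estimates with, in each library, a 75th percentile of 997 to 1000 over genes above 0. Per the submitters' processing notes, Picard 1.64, SAMtools and RSEM were used with mm9; which aligner and annotation served is not given in the sources used here. Between 87.8% and 89.4% of low values were whole multiples of a library's smallest step (tolerance 0.05), so no count model was used, and the implied depth is approximate. Genes at 10 or more in at least 5 libraries (13548) were tested on log2(value + 1) with limma 3.58.1 (R 4.3.3; moderated test with a mean-variance trend, 4 group means, the contrast averaged over genotypes, Benjamini-Hochberg at 0.05). Fold changes are on the log2(value + 1) scale and understate those of low genes. The fit was tested on simulated data: on 13410 genes, 42.7% of genes changed by 0.5 and 81.4% of those changed by 1 (log2) were recovered for this averaged comparison, with 6 false calls. The simulated noise was independent for each gene and library, with no factor shared within a library, so these figures may not hold for the real libraries. Changed genes that failed the filter were left out of the percentages. Single measures per library used an exact permutation test over 63504 regroupings within genotype.

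The members and the 53 gene lists were chosen with earlier results of these data known, and 7 more lists after the called genes were seen. Named genes are, by rule, up to 12 called genes per direction with a mean of at least 100, filled to 6 by the smallest p-values, the called members or the 2 lowest p-values of each list described, the deleted gene and the drug's targets, and 8 heart genes; others are said to be chosen after their values were seen. Of the 17 called genes, 1 is not reported here. Replicate numbers do not pair libraries (residual correlations of same-numbered libraries -0.51 to 0.43, median 0.03, 30 pairs). Nothing beyond the design text says that replicates are separate animals, and p-values measure the spread between these libraries. Alternatives were other pseudocounts (0.5 and 10), filters and scalings, pool and replicate terms, an additive model, array weights, length score and atrial covariates, the omission of control vehicle libraries 1 and 3, and of each library in turn. Overlaps were looked up in RefSeq by whole gene span, without exons or strand, and near-identical copies in GENCODE transcripts. No coordinates are given here. For Gm5512 and Peg13 no transcript was searched for copies.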

Additional observations from a re-analysis of the deposited data

Results flagged for a closer look

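A library far from the other 4 of its group, by the ratio of its gap to the group's range (above 0.71 for 5 libraries), was found in 20 of 356 gene and group combinations over 89 named genes. Chance flags about 1 in 20 such groups. Among called genes, Retnla stood at 681 in knockout rapamycin library 2, where the others were at 199 to 294. Ckb stood at 761 in control rapamycin library 4, with the others at 1072 to 1174, and Bckdhb at 1743 in knockout vehicle library 2, with the others at 2066 to 2184.

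Control vehicle library 3, which also stood apart on the first principal component, was far from its group for Insig1 (1327), Tbx20 (819), Hibch (2387) and Dlat (18306). Other control libraries were far for Nppb (21192 in vehicle 1), Pdk4 (138099 in vehicle 5), Hibch (2075 in rapamycin 1) and Acsl1 (16661 in rapamycin 4). In knockout hearts Nppa stood at 34858 in rapamycin library 2, Cyp51 at 487 in vehicle 2, Mrps27 at 1329 and Cd68 at 97.4 in vehicle 3, Emr1 at 1337 in vehicle 4, Pmpcb at 4765 in rapamycin 3, and Nrf1 at 360, Tead4 at 27.7 and Cox17 at 4363 in vehicle 5.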

How the results depend on the processing

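The 16 called genes described here kept their direction under the 13 alternatives and the 20 fits without 1 library, and kept their call in 269 gene and setting combinations and lost it in 259. The count of 17 became 0 with a pool term, 5 (0 higher, 5 lower) with a replicate block, 4 (0 and 4) without control vehicle libraries 1 and 3, 35 (9 and 26) with array weights and 322 (177 and 145) with the length score; the cause was not tested. The higher genes were 6 with no filter on low values and 1 with the atrial covariate. In knockout hearts alone the count of 1 became 0 under quantile scaling, median-ratio scaling, the pool term, the replicate block, the atrial covariate or the omission of the 2 libraries, 58 with array weights and 223 (1.65%) with the length score. No gene passed in control hearts or for the difference between genotypes in any fit.

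Without 1 library the count ranged from 3 to 17 (higher 0 to 4, lower 3 to 15) and in knockout hearts from 0 to 2. It was 3 without control vehicle 1 or 2 or knockout vehicle 2 or knockout rapamycin 2, 4 without control vehicle 3, knockout vehicle 1 or knockout rapamycin 1, 3 or 4, 5 without control rapamycin 2 or 3, 6 without control rapamycin 4, 7 and 8 without knockout vehicle 5 and 4, and 10 without control rapamycin 5. Same-numbered libraries are not paired, so the block is a description.

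Uncalled genes near 0 changed sign. Without the 2 libraries the changes were Myh6 -0.0278, Rptor -0.0462, Acsl1 -0.0156, Mtor -0.138, Rps6kb1 -0.102, Pdk4 -0.173 and Eif4ebp1 0.109. With the length score they were Rptor -0.0325, Acsl1 -0.0464, Mtor -0.0890, Rps6kb1 -0.0787 and Eif4ebp1 0.111. With array weights they were Rptor -0.00121, Mtor -0.0662, Rps6kb1 -0.00282, Pdk4 -0.273 and Eif4ebp1 0.0783. The pool term gave Pdk4 -0.0552 and Eif4ebp1 0.0370, quantile scaling Eif4ebp1 0.00541, the atrial covariate Eif4ebp1 0.00284 and median-ratio scaling Cpt1b -0.0193. Without 1 library Rps6kb1 ranged from -0.0136 to 0.130, Pdk4 from -0.0975 to 0.344, Nppb from -0.0948 to 0.504, Cpt1b from -0.0271 to 0.0457, Map1lc3b from -1.91e-05 to 0.0805 and Eif4ebp1 from -0.0539 to 0.0617. The difference of the length score between arms was -0.0261 without the 2 libraries. Of 1979 list medians 1974 moved by less than 1 SD of the list's median level between replicate libraries. That SD includes the spread between libraries that several alternatives address, so the count does not show that the medians were stable. The cytosolic ribosomal protein median, for example, went from -0.00357 to 0.17 with the length score, and that of oxidative phosphorylation from -0.14 to 0.02. With a mean of at least 100 required, Tead4, Fkbp11 and the mesothelium and epicardium list had no value.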
